A study of Mus musculus with 4 samples.

Results

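The genes described here are the myostatin, activin, follistatin and TGF-β genes of mouse muscle stem cells: the ligand genes Mstn, Inhba, Tgfb1, Tgfb2 and Tgfb3, the ligand trap genes Fst and Fstl3, the type II receptor genes Acvr2a and Acvr2b, and the inhibitory SMAD gene Smad7. They are a fixed set of 10 gene names, chosen by function and matched to the gene column of the deposited table, where each had 1 row among 23351. The RNA came from primary satellite cells (muscle stem cells) of the extensor digitorum longus, a muscle of the lower hind limb, from C57BL/6 mice of 6 to 8 weeks of age, young females according to the series title. There were 2 Control libraries and 2 libraries labelled ERβ scKO, which the design text calls ERβ cKO, ERβ being estrogen receptor β, a nuclear receptor. What the sc stands for, the driver of the deletion, any floxed or Cre alleles of the Controls, and whether mice were pooled are not given in the sources used here. The series' design text speaks of triplicates, while 2 libraries per group were analysed here.

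Myostatin and the activins are ligands of the TGF-β superfamily that bind a type II activin receptor, which then activates a type I receptor and the transcription factors SMAD2 and SMAD3. Myostatin is made mainly by muscle and restrains muscle growth, while follistatin binds myostatin and activins and keeps them from their receptors. The TGF-β isoforms act through their own receptors on the same pair of SMADs, and the pathway induces Smad7, which dampens it. In cultured myoblasts these signals are known to hold back differentiation, and follistatin to favour it.

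Values are FPKM, which divide a gene's sequenced fragments by its transcript length and the library's depth and so can be compared between genes. The spacing of low values gave about 2500000 to 3000000 fragments per library. Markers of satellite cells and myoblasts were at similar sums in all 4 libraries, from 1523 to 1590 FPKM over 7 of 7 genes. Pax7 was between 10.4 and 10.7 FPKM and Myod1 between 315 and 385. Most of the sum was Myog, a marker of differentiating myoblasts, Des and Myod1, so it can hide shifts of single genes. Myog was at 494 and 621 FPKM in the Control pair, against 622.5 and 660 in the ERβ scKO pair. Cdh15 was at 74.9 and 54.8, against 56.6 and 55.6, and Myf5 at 11.5 and 18.8, against 13.4 and 18.2. Of the 9 fibroblast markers, Lum, Dpt and Tcf21 were listed at 0 in all libraries, and the sum over the list was 113 and 74.7 FPKM in Control replicates 1 and 2 and 74.4 and 65.7 in ERβ scKO replicates 1 and 2. All 6 fibroblast markers tested had a lower mean of log2(FPKM + 1) in ERβ scKO (median difference −0.26, 0 called by limma). By mean FPKM Dcn was level, at 1.27 in Control and 1.28 in ERβ scKO. Without Control replicate 1 the median was 0.38. Ly6a (−0.60) and Col3a1 (−0.15) stayed lower there, while Pdgfra, Thy1, Dcn and Col1a1 ran from 0.34 to 0.51. Summed markers of endothelial cells were between 1.87 and 8.50 FPKM, of leukocytes between 0.757 and 2.89, with Lyz2 at 0 in all, and of Schwann cells between 0.427 and 1.87, while those of pericytes and smooth muscle, several of which myoblasts also express, were between 844 and 900.1, most of it Acta2. Pdgfrb, of that last list, was at 8.28 and 2.84 FPKM in the Control pair, against 4.06 and 1.45 in the ERβ scKO pair (difference −0.76, limma adjusted p = 0.837; −0.12 without Control replicate 1); its p in the authors' deposited table was 0.0012. The part of any of these cells in the values below was not tested. Esr2, which encodes ERβ, had 0.234 and 0.202 FPKM in the Control pair and 0 in each ERβ scKO library, below the 0.297 to 0.357 FPKM that 3 fragments give at its length, so it does not check the labels. Control replicate 1 was the highest or lowest of the 4 libraries in 67.4% of the 11201 genes that averaged 1 FPKM or more, and in 8 of the 8 described here that reached that level. It was the lowest for 5 of them and the highest for 3.

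The promoter windows of the ligand genes that had an entry in the sequence table are shown first, since they hold the sequence at which factors of the myogenic, SMAD and estrogen receptor families could act. The windows run from 250 bases before to 50 bases after the start of the RefSeq transcript (build GRCm38.p6), written in the direction of transcription, and 7 of the 10 genes had an entry; Fst, Tgfb3 and Smad7 had none. Capitals mark matches to 4 short motifs searched on both strands: the E-box CANNTG, the sequence that MyoD and myogenin bind; CAGAC, the core that SMAD3 and SMAD4 bind; GGTCA, a half-site of the estrogen response element; and TATAAA, the TATA box. Of all 32851 windows of this length in the table, 72.3% held an E-box, 49.6% CAGAC, 40.5% GGTCA and 13.6% TATAAA.
Mstn, chr1:53061390-53061689, plus strand: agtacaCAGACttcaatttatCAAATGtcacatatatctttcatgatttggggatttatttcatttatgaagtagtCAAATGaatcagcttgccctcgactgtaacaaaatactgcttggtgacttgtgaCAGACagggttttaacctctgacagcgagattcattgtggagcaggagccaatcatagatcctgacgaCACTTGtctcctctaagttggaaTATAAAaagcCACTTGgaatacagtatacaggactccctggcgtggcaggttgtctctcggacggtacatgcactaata
Inhba, chr13:16011601-16011900, plus strand: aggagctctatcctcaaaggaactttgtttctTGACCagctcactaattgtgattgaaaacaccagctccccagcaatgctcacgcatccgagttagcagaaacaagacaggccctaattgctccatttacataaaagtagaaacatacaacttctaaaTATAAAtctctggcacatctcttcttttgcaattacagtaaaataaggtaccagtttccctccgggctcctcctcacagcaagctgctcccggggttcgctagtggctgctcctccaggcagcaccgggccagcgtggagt
Tgfb1, chr7:25686752-25687051, plus strand: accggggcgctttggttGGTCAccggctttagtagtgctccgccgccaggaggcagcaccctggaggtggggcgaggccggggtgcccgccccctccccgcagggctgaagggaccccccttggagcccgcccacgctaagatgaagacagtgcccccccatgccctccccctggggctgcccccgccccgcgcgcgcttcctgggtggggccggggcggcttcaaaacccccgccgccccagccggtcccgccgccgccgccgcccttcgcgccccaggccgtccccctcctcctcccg
Tgfb2, chr1:186705940-186706239, minus strand: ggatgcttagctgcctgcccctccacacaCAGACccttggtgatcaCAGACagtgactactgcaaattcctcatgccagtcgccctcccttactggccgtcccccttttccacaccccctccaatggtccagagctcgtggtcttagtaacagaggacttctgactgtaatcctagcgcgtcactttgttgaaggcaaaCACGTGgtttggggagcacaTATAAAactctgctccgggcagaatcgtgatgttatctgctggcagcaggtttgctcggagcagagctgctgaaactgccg

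The Mstn window held 4 E-boxes, 2 copies of CAGAC and a TATA box that began 29 bases before the start, with no estrogen half-site. The Tgfb2 window held 1 E-box, 2 copies of CAGAC and a TATA box 31 bases before the start. The Inhba window held 1 estrogen half-site, 218 bases before the start, and TATAAA 91 bases before it; the locus that the authors list for Inhba begins 2624 bases downstream of this start. The Tgfb1 window had no TATA box, a GC content of 77.0% and 1 estrogen half-site 233 bases before the start, while the GC content was 41.3% at Mstn, 54.3% at Tgfb2 and 52.7% in the median window. These matches describe the letters in these windows and say nothing of binding.

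The comparison of ERβ scKO with Control asks how the levels of these genes differed between the labels. Fst had the highest mean of the 10 genes and Mstn the lowest of the 8 that averaged 1 FPKM or more. In both of these genes the pair of ERβ scKO libraries lay above the pair of Control libraries, and Control replicate 1 lay far below the other 3. Inhba varied most: it was the highest of the 10 in Control replicate 1 and 8th of them in Control replicate 2. Tested across all 11201 genes with limma on log2(FPKM + 1), 0 of these 8 genes passed an adjusted p of 0.05 (0.0357% of all genes tested did, the 4 being Rn45s, Snora31, Snord35a and Snora23, named after their values were seen), and 0 had an unadjusted p under 0.05 (4.62% of all genes tested did).

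Mstn, which encodes myostatin (chromosome 1, 53061663 to 53068079, mm10), measured 2.34 and 6.30 FPKM in the Control pair, against 6.59 and 7.06 FPKM in the ERβ scKO pair, with replicate 1 named first here and below. The groups did not overlap, but Control replicate 2 was close to the ERβ scKO libraries and Control replicate 1 stood alone, with about 16 fragments against 51, 48 and 55 in the others. The group means were 4.32 ± 2.80 FPKM (SD, n = 2) and 6.83 ± 0.334 (SD, n = 2), a ratio of 1.58. On the log2(FPKM + 1) scale the difference was 0.66 (SE 0.37, 95% interval −0.26 to 1.59, limma adjusted p = 0.837). Without Control replicate 1 it was 0.10, and without Control replicate 2 it was 1.23.

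Inhba encodes the βA subunit, a pair of which forms activin A (chromosome 13, 16014475 to 16027211). It was at 41.2 and 6.04 FPKM in the Control pair, against 20.1 and 8.16 FPKM in the ERβ scKO pair. Both replicate 1 libraries were above both replicate 2 libraries, and the ERβ scKO values lay between the Control values. The gap between the 2 Control libraries, 2.58 on the log2 scale, was among the widest: 18 of the 11201 genes tested, Inhba included, had a gap at least that wide, and the median gap was 0.22. The means were 23.6 ± 24.9 FPKM (SD, n = 2) in Control and 14.1 ± 8.47 (SD, n = 2) in ERβ scKO. The difference was −0.31 (SE 0.85, 95% interval −2.41 to 1.79, limma adjusted p = 0.948). Leaving out Control replicate 1 gave 0.98, Control replicate 2 gave −1.60, ERβ scKO replicate 1 gave −0.91 and ERβ scKO replicate 2 gave 0.29, so its sign depended on which library was left out. Of the 6 fibroblast markers tested, Pdgfra, Thy1, Dcn and Col1a1 also had both replicate 1 libraries above both replicate 2 libraries, while Col3a1 and Ly6a did not. This split was not particular to fibroblast markers, as Tgfb1, Smad7, Ctgf and Id3 had it too. Its share over all genes tested was not computed. Pdgfra, a growth factor receptor, was at 3.17 and 0.446 FPKM in the Control pair, against 2.64 and 0.149 in the ERβ scKO pair, and Col3a1, a collagen chain, at 81.0 and 69.2, against 63.4 and 61.4. The part of fibroblasts in the Inhba values was not tested. In bulk RNA a change in the number of cells of a type and a change in RNA per cell cannot be told apart.

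The TGF-β isoform genes kept a steady summed level while their shares varied. The sum of Tgfb1, Tgfb2 and Tgfb3 was 38.4 and 37.6 FPKM in Control and 38.8 and 37.9 FPKM in ERβ scKO; this sum was chosen after the values were seen. Tgfb3 held the largest share in every library, 48.2% and 57.4% in Control and 51.8% and 61.0% in ERβ scKO. Tgfb1, the isoform that platelets and immune cells secrete in quantity (chromosome 7, 25687002 to 25704996), measured 13.3 and 8.71 FPKM in the Control pair, against 9.66 and 7.41 FPKM in the ERβ scKO pair. Control replicate 1 was again the highest, and the groups overlapped. Both replicate 1 libraries were above both replicate 2 libraries, as for Inhba. Its difference was −0.32 (SE 0.24, 95% interval −0.92 to 0.28, limma adjusted p = 0.838), and from −0.60 to −0.04 when 1 library was left out, nearest to 0 without Control replicate 1.

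Tgfb2 (chromosome 1, 186623186 to 186705992), an isoform with roles in heart and skeletal development, measured 6.53 and 7.30 FPKM in the Control pair, against 9.05 and 7.37 FPKM in the ERβ scKO pair. Its groups did not overlap, by 7.37 against 7.30 FPKM at the nearest pair of libraries, and they did overlap once the libraries were centred on their medians. The difference was 0.21 (SE 0.18, 95% interval −0.22 to 0.65, limma adjusted p = 0.844), and it ran from 0.08 without ERβ scKO replicate 1 to 0.35 without ERβ scKO replicate 2. Tgfb3 (chromosome 12, 86056743 to 86079041), which is known for its role in palate fusion, was the steadiest of the 10 genes. It was at 18.5 and 21.6 FPKM in the Control pair, against 20.1 and 23.2 FPKM in the ERβ scKO pair, with a highest library 1.25 times the lowest. Its difference was 0.11 (95% interval −0.26 to 0.47, limma adjusted p = 0.89); leaving out Control replicate 1 gave 0.0003, ERβ scKO replicate 2 gave 0.0066 and Control replicate 2 gave 0.21. The replicate 2 library was the higher one in both groups. Ttll5, which overlaps Tgfb3 on the opposite strand, had a mean of 6.48 FPKM; the kit keeps strand, but whether the authors' counting used it is not given in the sources used here.

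**Figure D1:**
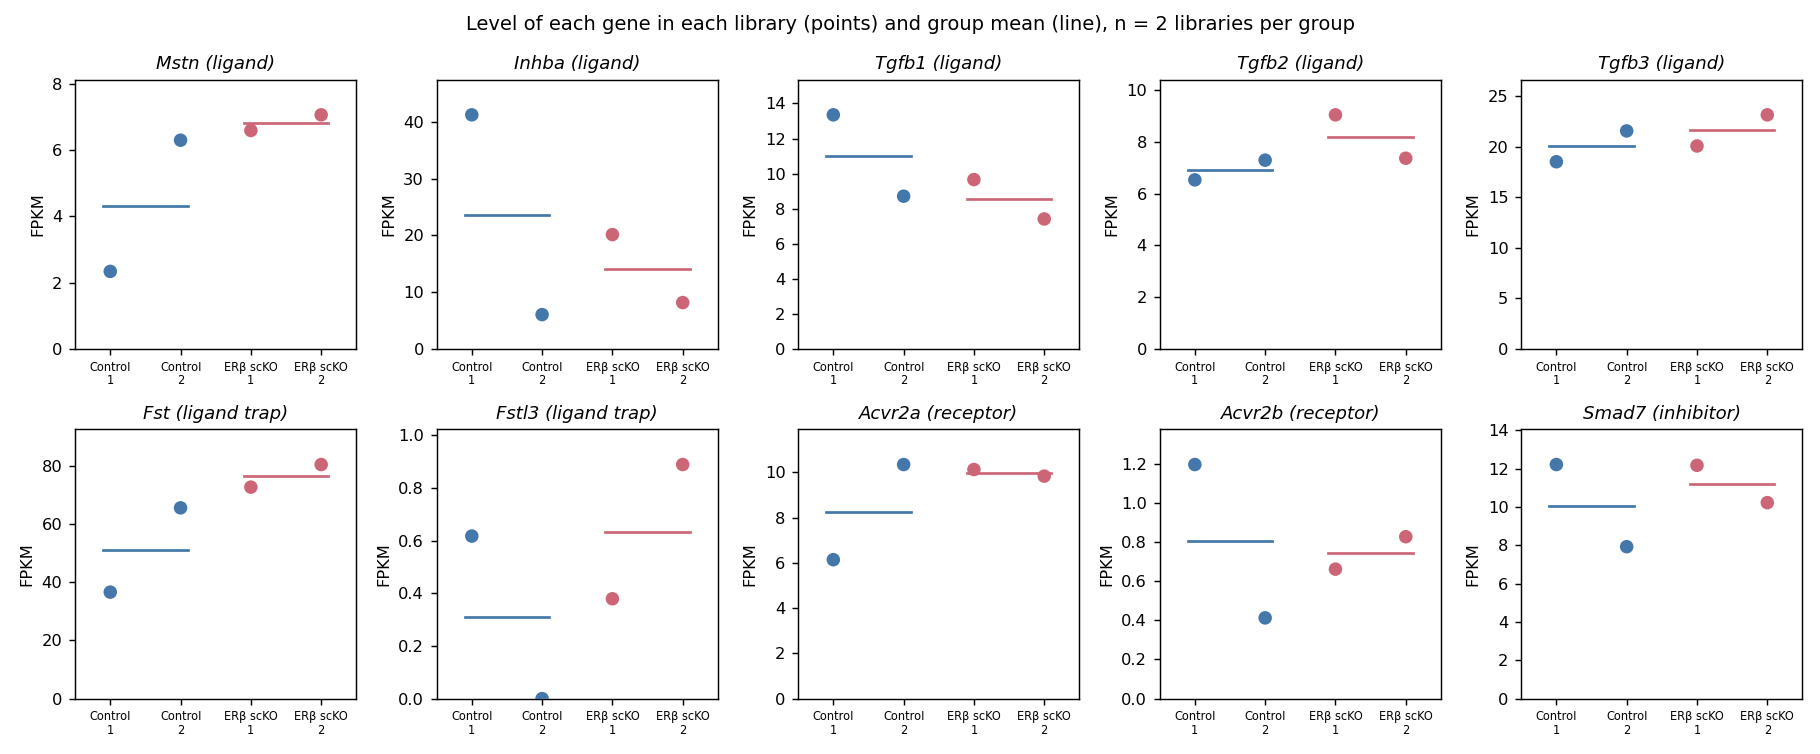
FPKM of each of the 10 genes in each library (points; Control blue, ERβ scKO red) with the mean of each group of 2 libraries (line), each panel with its own axis from 0. Control replicate 1 is the lowest point for Fst (36.6 FPKM) and Mstn (2.34 FPKM) and the highest for Inhba (41.2 FPKM) and Tgfb1 (13.3 FPKM).

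Among the ligand traps, Fst was the abundant one. Fst encodes follistatin (chromosome 13, 114452262 to 114458730) and measured 36.6 and 65.5 FPKM in the Control pair, against 72.7 and 80.4 FPKM in the ERβ scKO pair. These values rest on about 259, 557, 556 and 661 fragments, so counting error is small beside the gap between the Control libraries. The ERβ scKO pair lay above the Control pair, and Control replicate 1 was the lowest by a wide margin. The means were 51.1 ± 20.5 FPKM (SD, n = 2) and 76.5 ± 5.49 (SD, n = 2), a ratio of 1.50. The difference was 0.63 (SE 0.27, 95% interval −0.03 to 1.29, limma adjusted p = 0.837); its unadjusted limma p of 0.0572 was the lowest of the 8 genes. Without Control replicate 1 the difference was 0.22, and without Control replicate 2 it was 1.04.

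Fstl3, which encodes a follistatin-like protein that also binds activins and myostatin, was at 0.617 and 0 FPKM in the Control pair, against 0.379 and 0.889 FPKM in the ERβ scKO pair. These correspond to about 3, 0, 2 and 5 fragments, where 3 fragments give 0.512 to 0.614 FPKM in the 4 libraries, so a difference was not detectable at this depth. Its row also carries a locus of 672 kb on chromosome 10 that 46 rows of the table share, while the gene itself spans 79777272 to 79782630. The authors did not test it.

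Of the type II activin receptor genes, Acvr2a was measured and Acvr2b was close to the limit. Acvr2a (chromosome 2, 48814109 to 48949267) encodes a receptor for activins that myostatin also uses, and measured 6.14 and 10.3 FPKM in the Control pair, against 10.1 and 9.83 FPKM in the ERβ scKO pair. Both ERβ scKO values lay between the Control values and close to its replicate 2. Its difference of 0.29 (SE 0.25, 95% interval −0.32 to 0.89, limma adjusted p = 0.846) became −0.05 without Control replicate 1 and was 0.62 without Control replicate 2. Orc4, which overlaps Acvr2a on the opposite strand, had a mean of 22.1 FPKM, and reads where they overlap can be split only by strand. Acvr2b (chromosome 9, 119402501 to 119433506), the receptor that myostatin binds most strongly, measured 1.20 and 0.413 FPKM in the Control pair, against 0.662 and 0.828 FPKM in the ERβ scKO pair. That is about 5, 2, 3 and 4 fragments, with both ERβ scKO values between the Control values, and no difference was detectable at this depth.

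Smad7 (chromosome 18, 75367365 to 75395934) is induced by TGF-β signals and blocks the receptors in turn. It was at 12.2 and 7.93 FPKM in the Control pair, against 12.2 and 10.2 FPKM in the ERβ scKO pair. The replicate 1 libraries of the 2 groups had nearly the same level, above both replicate 2 libraries, and the groups overlapped. Its difference was 0.16 (SE 0.23, 95% interval −0.40 to 0.73, limma adjusted p = 0.89); it was −0.12 without Control replicate 2 and 0.45 without Control replicate 1.

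**Figure D2:**
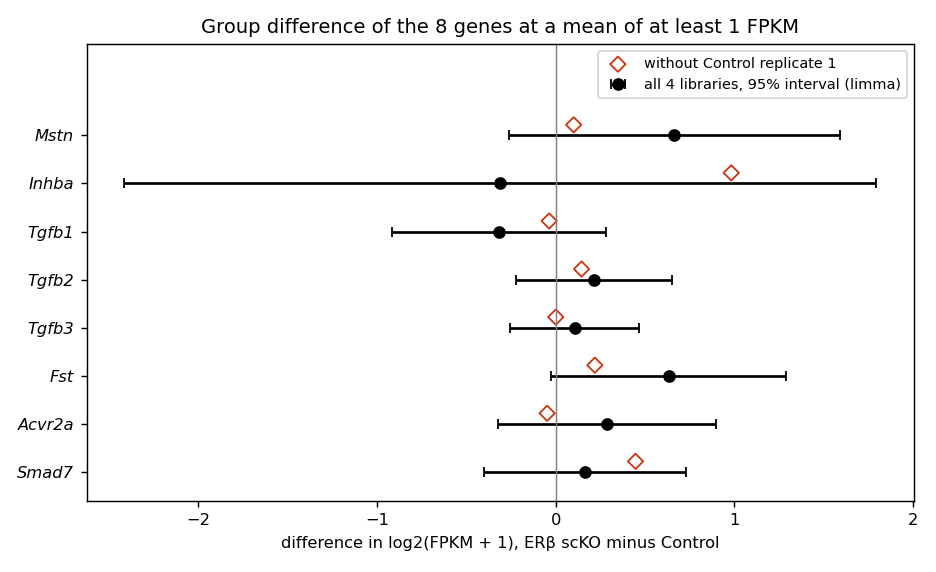
Difference in log2(FPKM + 1) of ERβ scKO minus Control for the 8 genes that averaged 1 FPKM or more: black points with limma's 95% intervals use all 4 libraries, and red diamonds leave out Control replicate 1. All 8 intervals cross 0; without that library Mstn goes from 0.66 to 0.10, Fst from 0.63 to 0.22 and Inhba from −0.31 to 0.98.

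Across the set, 6 of the 8 genes had a higher and 2 a lower mean on the log2 scale in ERβ scKO, with a median difference of 0.19, beside a median of −0.0037 and 49.3% of genes higher over all 11201. Mstn, Fst and Tgfb2 had the ERβ scKO pair above the Control pair, 3 of 8 or 37.5%, where 18.3% of all genes tested did so; 0 of the 8 had it below, where 18.3% did so as well. In the authors' deposited table, Fst (p = 0.00515), Inhba (p = 0.0133) and Mstn (p = 0.0497) had an unadjusted p under 0.05, which is 3 of the 8 genes of the set that the authors tested and 3.25% of all 9426, Fst and Mstn among the 1.33% higher in ERβ scKO and Inhba among the 1.92% lower. Each of these 3 had q = 0.998 in the authors' deposited table, which called 0 genes (0%) at q under 0.05. In Fst and Mstn Control replicate 1 stood apart, while Inhba had both replicate 1 libraries above both replicate 2 libraries. From limma, which uses the spread between the libraries of a group, the unadjusted p was 0.0572 for Fst, 0.729 for Inhba and 0.128 for Mstn. With 2 libraries against 2, an exact permutation test of one gene cannot go below p = 0.333 (two-sided).

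The order of levels was stable at the ends and not in the middle. Fst ranked 1st of the 10 in every library but Control replicate 1, where Inhba exceeded it, and Acvr2b and Fstl3 held the last 2 ranks in every library. Tgfb3 ranked 2nd or 3rd in each library. Smad7, Tgfb1, Acvr2a and Tgfb2, with means over the 4 libraries of 10.6, 9.78, 9.11 and 7.56 FPKM, changed ranks among libraries and had overlapping ranges. By FPKM within a library, Fst was 0.887 and 10.8 times Inhba in Control and 3.61 and 9.85 times in ERβ scKO, while it was 10.4 to 15.6 times Mstn in all 4 libraries. The ratio to Inhba was therefore lower in both replicate 1 libraries than in both replicate 2 libraries, and the ratio to Mstn varied far less.

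**Figure D3:**
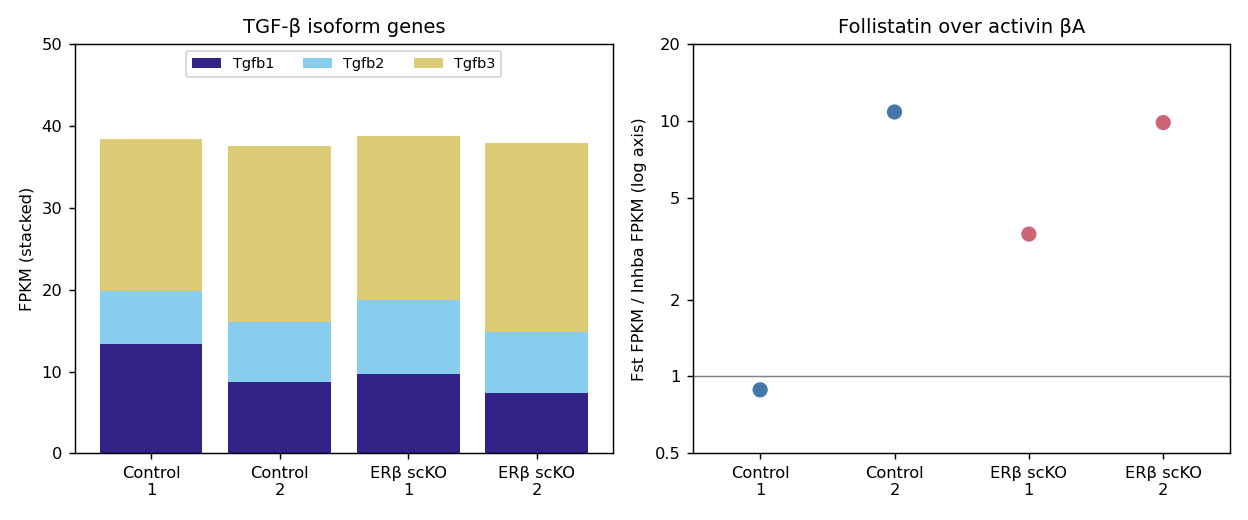
Left, FPKM of Tgfb1, Tgfb2 and Tgfb3 stacked for each library, with sums from 37.6 to 38.8 FPKM and a Tgfb1 part that is largest in Control replicate 1 (34.8% of the sum). Right, Fst over Inhba by FPKM in each library on a log axis, with the grey line at 1; Control replicate 1 (0.887) is the only library below it.

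The other genes of the pathway place these values. Of 75 pathway gene names listed beside the 10, 59 averaged 1 FPKM or more. Among these 59, limma called 0 higher and 0 lower at an adjusted p of 0.05, and 1, Cdkn1a, had an unadjusted p under 0.05. Their median difference was −0.03, with 24 higher and 35 lower. The type I receptors that pair with ACVR2A and ACVR2B were present at modest levels: Acvr1b was at 5.08 and 3.87 FPKM in the Control pair, against 3.70 and 4.79 in the ERβ scKO pair, and Tgfbr1 was between 7.99 and 8.36 FPKM in all 4 libraries. Acvr1c, another type I receptor of this branch, was at 0 to 0.0433 FPKM. Tgfbr2, the type II receptor of the TGF-β isoforms, was at 12.7 and 9.05 FPKM in the Control pair, against 10.7 and 9.55 in the ERβ scKO pair. Of the 10 receptor genes tested, 4 had a higher and 6 a lower mean, with a median of −0.03.

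Smad2, Smad3 and Smad4 varied little between libraries. Smad2 was at 8.18 and 8.19 FPKM in the Control pair, against 9.72 and 9.60 in the ERβ scKO pair (difference 0.21, 95% interval −0.15 to 0.58, limma adjusted p = 0.837), above both Control libraries by more than the gap within either group. Smad3 was between 4.03 and 5.21 FPKM and Smad4, their common partner, between 31.5 and 35.0 FPKM. Both also had their ERβ scKO libraries above their Control libraries, by differences of 0.15 and 0.08 that limma did not call. Smad6, the inhibitory SMAD of the BMP branch, was at 4.85 and 3.39 FPKM in the Control pair, against 2.65 and 3.05 in the ERβ scKO pair (difference −0.40, limma adjusted p = 0.837; −0.19 without Control replicate 1). Over the 7 SMAD genes beside Smad7 the median difference was 0.04, with 5 higher and 2 lower. The 9 intracellular regulators tested had 4 higher and 5 lower, with a median of −0.03.

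Of 8 other ligand genes 4 were tested, with 2 higher, 2 lower and a median difference of 0.06. Gdf11, the closest relative of myostatin, was at 12.1 and 11.4 FPKM in the Control pair, against 11.9 and 8.88 in the ERβ scKO pair, above Mstn in every library. Inha, the inhibin α subunit that pairs with βA in place of another βA, was at 8.21 and 8.79 FPKM in the Control pair, against 9.41 and 12.0 in the ERβ scKO pair. Bmp4 was listed at 0 in all 4 libraries. Of 20 genes for extracellular binding proteins and activators 15 were tested, with 4 higher and 11 lower; their median was −0.03, and 0.32 without Control replicate 1, the highest library for 11 of them. Ltbp1, which holds latent TGF-β in the matrix, was between 41.5 and 46.5 FPKM, and Thbs1, thrombospondin 1, which can activate latent TGF-β, was at 728 and 538 FPKM in the Control pair, against 619 and 604 in the ERβ scKO pair. Lrrc32, which presents latent TGF-β on the cell surface, was at 11.3 and 0.0868 FPKM in the Control pair, against 2.41 and 0.261 in the ERβ scKO pair, the same order of libraries as Inhba. Furin, the protease that cuts TGF-β family precursors, stood at 46.7 FPKM in Control replicate 1, where the other 3 libraries ranged from 26.8 to 29.2. Hfe2, hemojuvelin, a BMP co-receptor abundant in muscle, was at 10.5 and 18.3 FPKM in the Control pair, against 16.2 and 21.9 in the ERβ scKO pair, low in Control replicate 1 like Fst and Mstn.

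**Figure D4:**
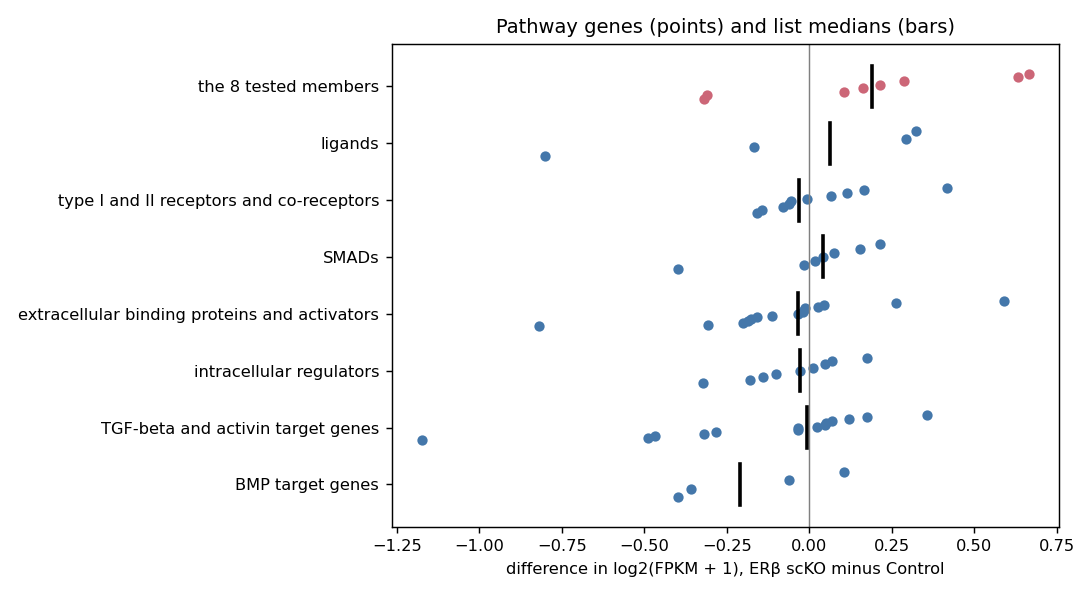
Difference in log2(FPKM + 1), ERβ scKO minus Control, of each tested gene (points) and the median of its list (black bar), for the 8 genes of the set (red) and 7 pathway lists (blue). Medians of the 7 lists run from −0.21 to 0.06, and the genes far to the left are Col1a1, Lrrc32 and Gdf15.

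Genes that TGF-β and activin are known to induce were evenly split between the directions. Of 14 tested, 7 had a higher and 7 a lower mean in ERβ scKO, with a median of −0.01; the median was −0.18 between the replicate 1 libraries, 0.11 between the replicate 2 libraries and 0.19 without Control replicate 1. Ctgf, which encodes a secreted matrix protein and is a classical TGF-β target, was at 180 and 29.8 FPKM in the Control pair, against 89.2 and 31.4 in the ERβ scKO pair. It was highest in Control replicate 1, next in ERβ scKO replicate 1 and low in the replicate 2 libraries, as Inhba was. Pmepa1 had the order of Inhba over a narrower range, as it was at 49.3 and 33.8 FPKM in the Control pair, against 45.5 and 40.5 in the ERβ scKO pair. Skil was lowest in Control replicate 1 and between 39.2 and 48.3 FPKM, and Acta2 was between 781 and 826 FPKM.

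Ctgf and Col1a1 were among the target genes with an unadjusted p under 0.05 in the authors' deposited table, with lower means in ERβ scKO. Col1a1, a collagen chain that is also a fibroblast marker, was at 18.8 and 0.909 FPKM in the Control pair, against 2.09 and 1.40 in the ERβ scKO pair. In both genes Control replicate 1 was the highest library, by far for Col1a1. For Ctgf, ERβ scKO replicate 1, at 89.2 FPKM, was also well above both replicate 2 libraries. Without Control replicate 1 the differences of Ctgf and Col1a1 on the log2(FPKM + 1) scale were 0.81 and 0.51. Cdkn1a, the cell cycle inhibitor p21, which TGF-β induces in many cells, was at 316 and 388 FPKM in the Control pair, against 425 and 475 in the ERβ scKO pair (difference 0.36, 95% interval 0.03 to 0.68, limma adjusted p = 0.837; 0.21 without Control replicate 1). Its lowest library was Control replicate 1, as for Fst and Mstn. Myog, myogenin, a marker of differentiating myoblasts, likewise stood at 494 FPKM in Control replicate 1, where the other 3 libraries ranged from 621 to 660. Over the 7 satellite cell and myoblast markers, Control replicate 1 was the lowest library for 2, Myog and Myf5, and the highest for 5. Malat1, a nuclear RNA that can vary with RNA quality, was at 63.5 and 115 FPKM in the Control pair, against 141 and 166 in the ERβ scKO pair. Neat1, another nuclear RNA, was at 79.8 and 90.8 FPKM in the Control pair, against 129 and 143 in the ERβ scKO pair. The difference was 0.83 for Malat1 (95% interval 0.15 to 1.51) and 0.67 for Neat1 (0.38 to 0.96), each with a limma adjusted p of 0.837. Without Control replicate 1 the differences of Malat1 and Neat1 were 0.41 and 0.58, so they did not rest on that library alone. The part of differentiation state or RNA quality in the Fst and Mstn values was not tested. BMP target genes had a median of −0.21 over 4 genes, with 1 higher and 3 lower. The differences were 0.10 for Id2, −0.06 for Id1, −0.36 for Id3 and −0.40 for Smad6. Id3 was at 388 and 220 FPKM in the Control pair, against 255 and 203 in the ERβ scKO pair. Without Control replicate 1 the median of the 4 was 0.12.

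**Figure D5:**
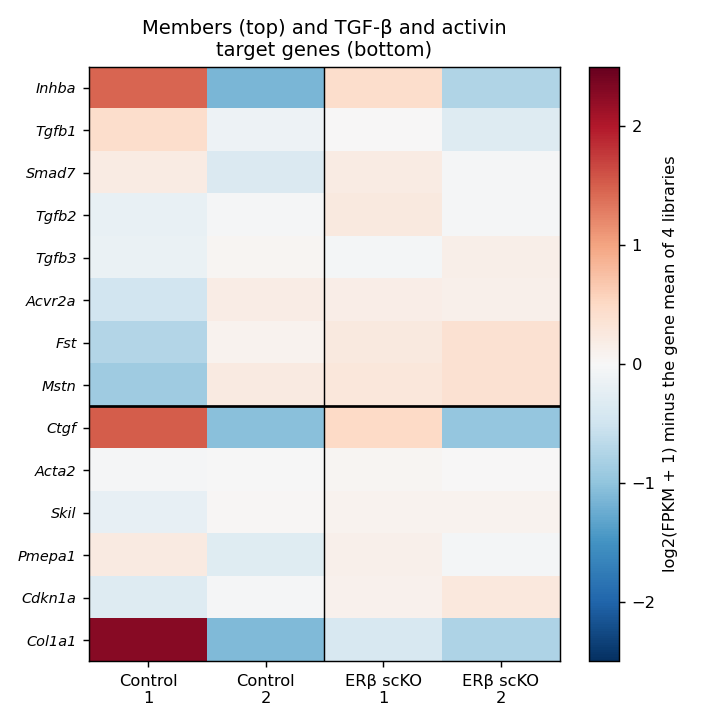
Deviation of each gene's log2(FPKM + 1) from its mean over the 4 libraries, for the 8 genes of the set (above the line) and 6 of the TGF-β and activin target genes (below), those whose values the text gives. Inhba, Ctgf and Col1a1 are highest in Control replicate 1 (1.45, 1.51 and 2.27), where Fst and Mstn are lowest (−0.73 and −0.90).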

How the data were processed

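The 4 libraries came from a stranded mRNA kit, per the labels' protocols. The submitters' processing notes name TopHat, Cufflinks and the build mm10; versions and annotation are not given in the sources used here. The deposited gene table holds the authors' FPKM per library and their group means, which differed from recomputed means by at most 0.007. Per the file headers it further gives the authors' log2 fold change, their test statistic (a score, used for its sign) and their p-value with its q-value; rows not tested stand at 1. A second deposited sheet repeats rows of this table and was not used.

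FPKM are not counts, so library values were compared with limma 3.58.1 (R 4.3.3) on log2(FPKM + 1) with a variance trend, without a block, over the 11201 genes that averaged 1 FPKM or more, with Benjamini-Hochberg adjustment over all of them and a threshold of 0.05. Differences on this scale understate changes of low genes. The code of the fit was checked on simulated data with large changes and an even spread, which does not measure its power at the spread of these libraries. Nothing says that the libraries of a group came from separate mice, so p-values measure the spread between these libraries, which may be technical.

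Depth was estimated from the spacing of low FPKM in genes with 1 transcript longer than 1500 bases in GENCODE M21 (mm10). Fragment numbers use the length of the coding transcript nearest to the listed locus and are approximate, most of all for Inhba, whose transcripts differ in length. Limits of 3 fragments cover counting error only. Locus starts are given 1-based. Promoter sequences are from RefSeq. The genes described and the pathway and marker lists were chosen with earlier results of these data known; all 10 genes of the set and, of the lists, those that place them are named. Ccn2 and Adgre1 had no row under those names. Ccn2 is another name of Ctgf, which had a row, so the 75 pathway names hold that gene under both. No measure of likeness between genes was computed, since 4 libraries are too few; remarks on a shared order of libraries were made after the values were seen. Overlapping genes are reported as uncertain. The values of 1 gene of the pathway lists are not reported here.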

Additional observations from a re-analysis of the deposited data

How the results depend on the processing

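The alternatives were a pseudocount of 0.1 or 5, a filter at 5 FPKM or none, upper quartile scaling, median centring, limma without a trend, leaving out 1 library at a time, a block for the replicate number and the libraries of each replicate number alone. In all of the fits with a test, 0 of the genes of the set passed the adjusted p of 0.05; the authors' q also called 0. Over the whole table limma called 4 genes, 2 with no filter and from 7 to 11 with a library left out, and the authors' q called 0. The number of the 8 genes whose groups did not overlap was 3, each with the ERβ scKO pair above, and 2 with median centring. Over all genes tested, 18.3% had that pair above and another 18.3% had it below. With a library left out the number ran from 3 to 8. Fewer libraries make separation easier, and the share over all genes was not computed there, so these counts say nothing particular to the 8. Pseudocounts and the block leave the order of values as it is and gave no separate count. The signs that reversed were Inhba, at 0.98 without Control replicate 1 and at 0.29 when ERβ scKO replicate 2 was dropped (leave-one-out range −1.60 to 0.98), Acvr2a without Control replicate 1 (−0.048, range to 0.62) and Smad7 without Control replicate 2 (−0.12, range to 0.45); the cause was not tested. Of the untested values from 1 replicate number, the replicate 2 libraries alone gave Inhba 0.38 and Acvr2a −0.07, and the replicate 1 libraries alone gave Smad7 −0.0037, each with the sign opposite to that of all 4 libraries. Without Control replicate 2 the differences were 0.62 for Acvr2a, 1.04 for Fst, −1.60 for Inhba, 1.23 for Mstn and −0.60 for Tgfb1. Those of Smad7, Tgfb2 and Tgfb3 were −0.12, 0.28 and 0.21. In that fit Control replicate 1 stands alone and is assumed to vary like the ERβ scKO pair, so the spread within Control is not measured. With the block, 1 of the 8 genes (Fst) had an unadjusted limma p under 0.05. So did 947 of all 11201 genes tested, where 518 did in the main fit. In the other fits that kept all 4 libraries, 0 of the 8 did. Leaving out a library, Fst stayed between 0.22 and 1.04 and Mstn between 0.10 and 1.23 on the log2 scale. The median of the 59 pathway genes, −0.03, ran from −0.22 to 0.095 with a library left out. Each replicate number in the labels is shared by a Control and an ERβ scKO library. So is a number in the descriptions and column headers, 305 for replicate 1 and 332 for replicate 2. Nothing says what these numbers mark, and the main fit did not pair the libraries. Over all genes the deviations of same-numbered libraries correlated at 0.211. With the number as a block limma called 6 genes over the whole table, Fst had an adjusted p of 0.579 and Mstn 0.584, and it changed no call for the genes described. With about 2500000 to 3000000 fragments per library, Fstl3 and Acvr2b were too low to compare.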
